A study of Mus musculus with 10 samples.

Results

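The BCL2 family decides at the surface of the mitochondrion whether a stressed cell lives or dies, and 10 of its genes were followed here in human breast cancer cells grown in mice. The genes were BCL2, BCL2L1, MCL1, BAX, BAK1, BIK, BBC3, PMAIP1, BCL2L11 and BID, and every probe set that the platform's annotation pairs with exactly 1 of these symbols was taken. That gave 29 of the 61359 probe sets on the array and 10 of the 19556 genes with a probe set of their own. The members are defined by gene name, and the 10 genes were chosen with earlier results of these data known. Their counts beside those of all genes are therefore descriptions.

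The cells were human breast cancer cells in female nu/nu mice of 20 weeks, a strain whose hosts lack a thymus, and the labels name no cell line. All mice had received an estrogen pellet. In the estrogen groups (E) the pellet stayed in place, and in the withdrawn groups (EWD) it was taken out for 1 week. Axillary lymph node metastases came from 3 E mice (6, 11 and 14) and 3 EWD mice (9, 10 and 19), and primary mammary gland tumors from 2 E mice (11 and 14) and 2 EWD mice (10 and 19). The 10 arrays therefore came from 6 mice, of which 4 gave both sites. Cells were cut from frozen sections by laser capture, and PCR was used to amplify their RNA. The series' title places the study in estrogen receptor positive disease and asks about insensitivity to estrogen in lymph node metastases. The E and EWD arrays of each site were compared first, then the sites within a pellet state, and last the responses of the sites.

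The family has 3 kinds of member. The survival proteins BCL2, BCL2L1 (BCL-xL) and MCL1 hold the pore formers BAX and BAK1 in check. The BH3-only proteins, here BIK, BBC3 (PUMA), PMAIP1 (NOXA), BCL2L11 (BIM) and BID, carry stress signals to both kinds and tip the balance towards permeabilization of the mitochondrial outer membrane and release of cytochrome c. In estrogen receptor positive breast cancer cells BCL2 is known as an estrogen-induced gene and BIK as a gene that rises when estrogen signalling is blocked. Much of the family is also controlled after transcription: MCL1 and BCL2L11 proteins turn over quickly, and BID acts after cleavage by caspase 8, steps that an mRNA array does not see.

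Values are log2 signal as the authors deposited it, and differences are log2 differences with the standard error (SE) of 1 limma fit over all 10 arrays. Adjusted p-values come from limma after Benjamini-Hochberg correction across the 17170 genes tested, or across the 35191 probe sets tested where a single probe set is named. A gene or probe set was called at an adjusted p below 0.05. The arrays of the E primary tumors had a compressed range: their 99th percentiles were 9.44 and 10.04, against 11.39 to 11.67 on the other 8 arrays, while all 10 medians lay between 2.70 and 2.83. Every comparison was therefore also made after quantile normalization, which gives all arrays 1 distribution. The hybridization controls split the arrays into a high side (12.04 to 12.47) and a low side (9.47 to 10.59), and in primary tumors the low side held both E arrays and the high side both EWD arrays, so that pellet state and hybridization cannot be told apart there. The signal of the GAPDH control at the 3′ end minus that at the 5′ end, a sign of RNA integrity and amplification, moved with pellet state there too: it was 3.15 and 3.73 on the E and 4.62 and 5.87 on the EWD primary tumor arrays, and 3.84 to 4.39 on the lymph node arrays. The mean of 12 luminal epithelial markers lay between 9.17 and 9.81 on E and between 10.35 and 10.57 on EWD lymph node arrays, and between 7.89 and 8.10 on E and 9.90 and 10.11 on EWD primary tumor arrays. The means of 9 leukocyte markers lay between 2.39 and 2.97 on the lymph node arrays and between 2.47 and 2.77 on the primary tumor arrays, and those of fibroblast, endothelial, fat and muscle markers reached no more than 3.81 on any array. The mean of 4 basal markers lay between 4.13 and 5.46 on E and between 3.71 and 4.44 on EWD lymph node arrays, and between 5.04 and 5.75 on E and 3.62 and 4.90 on EWD primary tumor arrays. The part of these shifts in the results was not tested. Host cells are mouse cells, which reach human probe sets only by cross-hybridization. The means of leukocyte, fibroblast, endothelial, fat and muscle markers therefore do not measure them.

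In lymph node metastases none of the 10 genes was called between E and EWD. Of all genes tested, 0% were called there, and the 95% intervals of the limma fit include differences of over 1 log2 unit for 6 of the 10 members. At an unadjusted p under 0.05 stood 2 of the 10 members, BIK and BID, against 5.84% of all genes. The groups did not overlap for 1 member that was higher with E (4.47% of all genes) and 2 that were lower (5.46%). After quantile normalization the same numbers of members did not overlap, against 5.47% of all genes higher and 5.63% lower. The median difference of the 10 members was 0.11, and that of all genes was −0.02. In bulk arrays of captured tissue, fewer cells of a type and less RNA per cell cannot be told apart.

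In primary tumors MCL1 and BCL2L11 were called, both lower with E, and no member was called higher. Of all genes 7.82% were called, 0.879% higher and 6.94% lower. The groups did not overlap for 2 members higher with E and 4 lower, against 22.6% and 38.3% of all genes, so non-overlap of 2 arrays with 2 was common throughout the array. The median difference of the members was −0.01, against −0.10 for all genes. After quantile normalization no member was called, while 1.34% of all genes were still called by limma. At an unadjusted limma p under 0.05 on that scale stood 2 members (BAK1 and BID, both higher with E), against 21.3% of all genes. The groups then did not overlap for 3 members, all higher with E (31.1% of all genes higher and 26.8% lower). The plot of the 10 genes by array shows these values.

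**Figure D1:**
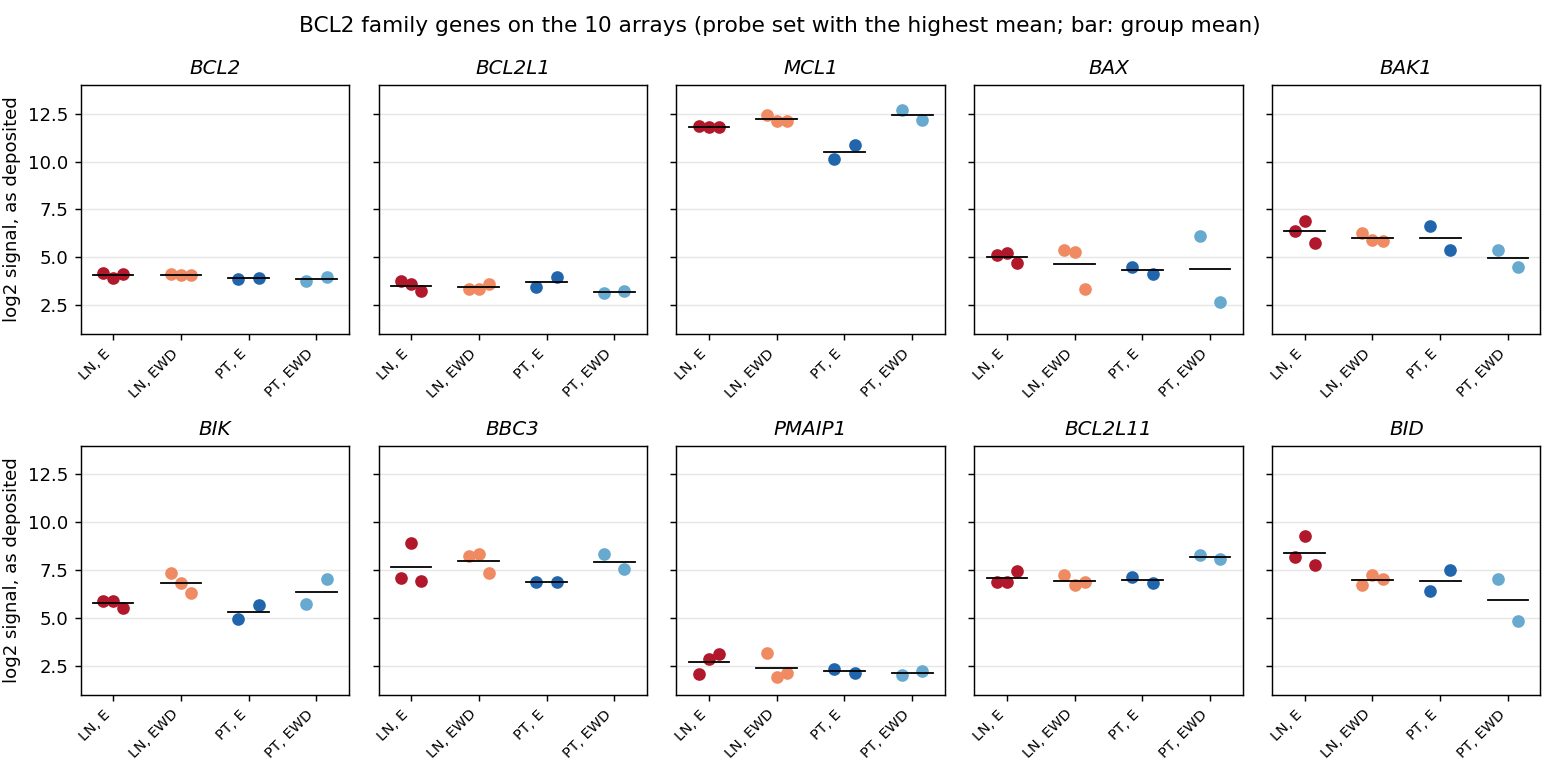
Log2 signal as deposited (vertical axis) of each of the 10 genes, by its probe set with the highest mean, on the arrays of lymph node metastases (LN) and primary tumors (PT) with E and after EWD. Each point is 1 array and each bar a group mean. MCL1 sits at 10.12 and 10.87 on the E primary tumor arrays, below all other arrays, and BCL2L11 at 8.30 and 8.08 on the EWD primary tumor arrays, above all others.

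Among the survival genes MCL1 had the clearest pattern. Its brightest probe set stood at percentile 99.5 of the array by mean signal. It read 11.86, 11.81 and 11.80 in E lymph nodes, against 12.41, 12.12 and 12.12 in EWD lymph nodes. In primary tumors it read 10.12 and 10.87 with E, against 12.71 and 12.17 after EWD. In both sites every E array was below every EWD array. The means were 10.49 ± 0.53 in E and 12.44 ± 0.38 in EWD primary tumors (SD, n = 2 each), a difference of −1.94 (SE 0.31, adjusted p = 0.0140). In lymph nodes they were 11.82 ± 0.03 with E and 12.22 ± 0.17 after EWD (SD, n = 3 each), a difference of −0.39 (SE 0.25, adjusted p = 0.927). Averaged over the sites MCL1 was the only member called between E and EWD, at −1.17 (SE 0.19, adjusted p = 0.0172), where 8.01% of all genes were called, 0.978% higher and 7.04% lower, and 3.57% of all probe sets. All E arrays together did not overlap all EWD arrays for 1 member, MCL1, on the lower side, against 2.22% of all genes lower and 0.716% higher. After quantile normalization no member was called in that average, against 3.72% of all genes.

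The MCL1 difference in primary tumors changed with the scale. The part of the compressed range of the E arrays in it was not tested. Genes with a mean over 10, of which there were 847, had a median difference of −1.90 in that comparison as deposited and of −0.19 after quantile normalization. After quantile normalization MCL1 read 11.90 and 11.99 in E and 12.36 and 11.83 in EWD primary tumors, groups that overlapped, and the difference was −0.15 (SE 0.25, adjusted p = 0.762). In lymph nodes the quantile values were 11.47, 11.58 and 11.40 with E and 11.99, 11.71 and 11.85 after EWD, which still did not overlap, at −0.36 (SE 0.20, adjusted p = 0.856). The call in primary tumors was also lost without the E array of mouse 11 (−1.58, adjusted p = 0.0838) and without either EWD array (mouse 10, −1.67, adjusted p = 0.0686, and mouse 19, −2.20, adjusted p = 0.0672), and the averaged call was lost without the E primary tumor array of mouse 11 (−0.99, adjusted p = 0.0918) and without the EWD lymph node array of mouse 9 (−1.12, adjusted p = 0.0536).

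The other MCL1 probe sets gave a mixed picture. A second one (g11386164_3p_a_at) read 6.59 and 5.39 in E and 8.45 and 7.72 in EWD primary tumors, a difference of −2.08 (SE 0.69, adjusted p = 0.132) that was −1.30 after quantile normalization, with groups that did not overlap on either scale. In lymph nodes it read 6.89, 5.92 and 7.95 with E and 8.17, 7.79 and 6.85 after EWD, and the groups overlapped. The MCL1 probe set next in brightness overlapped in both sites, at 5.50 and 6.43 in E and 5.86 and 6.60 in EWD primary tumors. The remaining pair was dim, with means of 3.02 and 2.69 over the 10 arrays.

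BCL2, the family's founding survival gene, did not separate by pellet state on its brightest probe set. That probe set (g4557356_3p_x_at, whose x marks probes shared with other sequences) read 4.15, 3.93 and 4.11 in E lymph nodes and 4.14, 4.06 and 4.06 in EWD lymph nodes. Primary tumors read 3.89 and 3.91 with E and 3.77 and 3.98 after EWD. The differences were −0.02 (SE 0.17) in lymph nodes and 0.02 (SE 0.21) in primary tumors, with 95% intervals of −0.41 to 0.36 and −0.45 to 0.49, so that these arrays leave room for at most about 0.5 log2 units on this probe set. A different probe set (g4557354_3p_at) behaved otherwise in lymph nodes. It read 5.14 and 5.52 in the E lymph nodes of mice 6 and 14 and 2.58 in that of mouse 11, against 3.39, 3.19 and 2.85 after EWD. It read 3.12 and 2.25 in E and 2.74 and 2.59 in EWD primary tumors, so that 2 of the 10 arrays stood above all others. The means were 4.41 ± 1.60 in E and 3.15 ± 0.27 in EWD lymph nodes (SD, n = 3 each), a difference of 1.27 (SE 0.67, adjusted p = 0.980). The E array of mouse 11 lies on the high hybridization side: within the low side the difference was 2.04 over 2 arrays each, and within the high side it was −0.27 over 1 array each. The part of hybridization in this split was not tested. Of the other 2, g4557356_3p_a_at overlapped between E and EWD in both sites, and the dim g179366_3p_a_at overlapped in lymph nodes and read 2.45 and 2.36 in E, above 2.10 and 2.30 in EWD primary tumors.

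BCL2L1, which encodes BCL-xL, was dim on all its 4 probe sets, whose means over the 10 arrays were 2.42 to 3.46. The brightest read 3.73, 3.59 and 3.25 in E and 3.34, 3.35 and 3.59 in EWD lymph nodes. In primary tumors it read 3.44 and 3.96 with E, above 3.11 and 3.22 after EWD. The difference there was 0.53 (SE 0.27, adjusted p = 0.256) and did not pass the test, and it was 0.55 after quantile normalization.

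**Figure D2:**
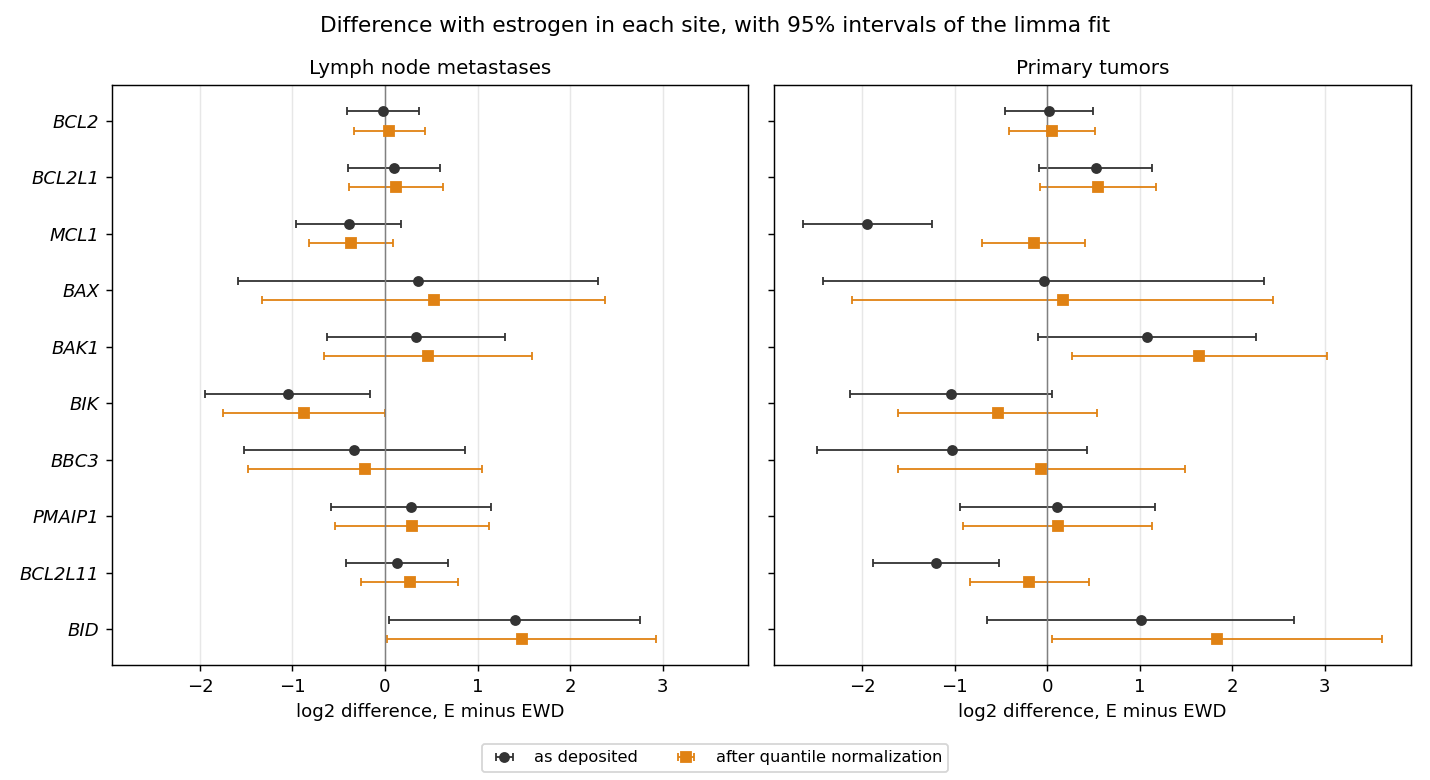
Log2 difference of E minus EWD (horizontal axis) in lymph node metastases and in primary tumors for the 10 genes, with 95% intervals of the limma fit. Black circles are the values as deposited and orange squares those after quantile normalization. In primary tumors MCL1 moves to −0.15 after normalization, against −1.94 as deposited, and BCL2L11 to −0.20, against −1.20, while the lymph node values move little.

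Of the pore formers, neither BAX nor BAK1 was called in any comparison. BAX read 5.14, 5.22 and 4.72 in E lymph nodes and 5.37, 5.30 and 3.34 in EWD lymph nodes, and 4.51 and 4.13 in E and 6.10 and 2.64 in EWD primary tumors. Its spread among EWD arrays of 1 site was wider than any difference between groups, and the differences were 0.35 (SE 0.86) in lymph nodes and −0.04 (SE 1.05) in primary tumors. For BAX a change of more than 2 log2 units in primary tumors lies within the 95% interval, −2.42 to 2.35. BAK1 read 6.37, 6.91 and 5.75 in E and 6.29, 5.90 and 5.84 in EWD lymph nodes, which overlapped. In primary tumors it read 6.63 and 5.40 with E and 5.39 and 4.50 after EWD. These groups did not overlap, by a margin in the second decimal, and the difference was 1.07 (SE 0.52, adjusted p = 0.231), or 1.64 (SE 0.61, adjusted p = 0.174) after quantile normalization. It moved with single arrays: as deposited it was 0.50 without the E array of mouse 11, 1.61 without that of mouse 14, 1.54 without the EWD array of mouse 10 and 0.64 without that of mouse 19.

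BIK, the BH3-only gene known to rise when estrogen signalling is blocked, was lower with E in both sites, without passing the test in either. It read 5.90, 5.89 and 5.54 in E lymph nodes, all below the 7.34, 6.85 and 6.32 of EWD lymph nodes. Readings in primary tumors were 4.97 and 5.68 with E, both below 5.72 and 7.03 after EWD. The differences were −1.05 (SE 0.39, adjusted p = 0.759) in lymph nodes and −1.04 (SE 0.48, adjusted p = 0.212) in primary tumors, where the EWD arrays disagreed: the value was −1.63 without that of mouse 10 and −0.41 without that of mouse 19. The difference between the sites' responses was −0.01 (SE 0.63, 95% interval −1.45 to 1.42). Averaged over the sites BIK stood at −1.05 (SE 0.30, adjusted p = 0.0696), and at −0.71 (SE 0.30, adjusted p = 0.188) after quantile normalization. It was called in that average only without the EWD primary tumor array of mouse 10 (−1.34, adjusted p = 0.0437). Within the low hybridization side of the lymph node arrays the difference was −1.37 over 2 arrays each, and within the high side −0.42 over 1 array each. After quantile normalization the primary tumor groups overlapped, at −0.54.

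BCL2L11, which encodes BIM, was called in opposite directions in primary tumors on different probe sets and in different fits. The lower call came from the fit over genes and the higher one from the fit over probe sets, so no single fit made both. Its brightest probe set read 7.15 and 6.81 in E primary tumors, against 8.30 and 8.08 in EWD primary tumors. In lymph nodes it read 6.90, 6.86 and 7.46 with E and 7.24, 6.70 and 6.89 after EWD, which overlapped. The means in primary tumors were 6.98 ± 0.24 with E and 8.19 ± 0.15 after EWD (SD, n = 2 each), a difference of −1.20 (SE 0.30, adjusted p = 0.0453), and in the fit over probe sets, where more tests were adjusted for, the adjusted p was 0.0551. After quantile normalization these arrays read 7.99 and 7.55 with E and 8.06 and 7.89 after EWD, and the difference was −0.20 (adjusted p = 0.726). With the mean over all BCL2L11 probe sets it was 0.17 (adjusted p = 0.621), the other way. Leaving out any 1 of the 4 primary tumor arrays ended the call, with differences of −1.46 to −1.03 and adjusted p-values of 0.115 to 0.237, as did leaving out the lymph node arrays of mouse 6, 9, 10 or 19 (adjusted p-values of 0.0557 to 0.0738).

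A different BCL2L11 probe set (Hs2.202657.5.S1_3p_s_at, whose s marks a match to several transcripts) ran the other way. It read 8.43 and 7.72 in E primary tumors, against 5.56 and 5.99 in EWD primary tumors. In lymph nodes it read 5.35, 6.10 and 5.28 with E and 4.94, 5.50 and 6.47 after EWD. The E primary tumor arrays thus stood above all 8 others, on arrays whose bright probe sets read low. The difference in primary tumors was 2.29 (SE 0.51, adjusted p = 0.0470), where 0.588% of all probe sets were called higher and 3.5% lower, and it was 3.49 (adjusted p = 0.0592) after quantile normalization. Without 1 of the primary tumor arrays it lay between 1.98 and 2.63 with adjusted p-values of 0.110 to 0.198, and without the lymph node arrays of mouse 6 or mouse 10 the adjusted p-values were 0.0811 and 0.0925. On the same primary tumor arrays the GAPDH 3′ minus 5′ signal was lower with E, and its part in the opposed BCL2L11 probe sets was not tested. The annotation gives this probe set the symbol BCL2L11 alone, and which transcripts it reads was not analysed here.

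A further bright BCL2L11 probe set read 6.77, 6.83 and 5.93 in E and 5.86, 5.99 and 5.37 in EWD lymph nodes, and 6.55 and 6.48 in E and 6.62 and 6.55 in EWD primary tumors. Its lymph node difference was 0.77 (SE 0.27, adjusted p = 0.901). The other 4 had means of 2.24 to 3.37 over the 10 arrays, and 1 of them (Hs2.202657.7.S1_3p_s_at) was under the floor for testing. The plot of probe sets of the same gene shows how far the probe sets of BCL2, MCL1, BCL2L11 and BID part.

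**Figure D3:**
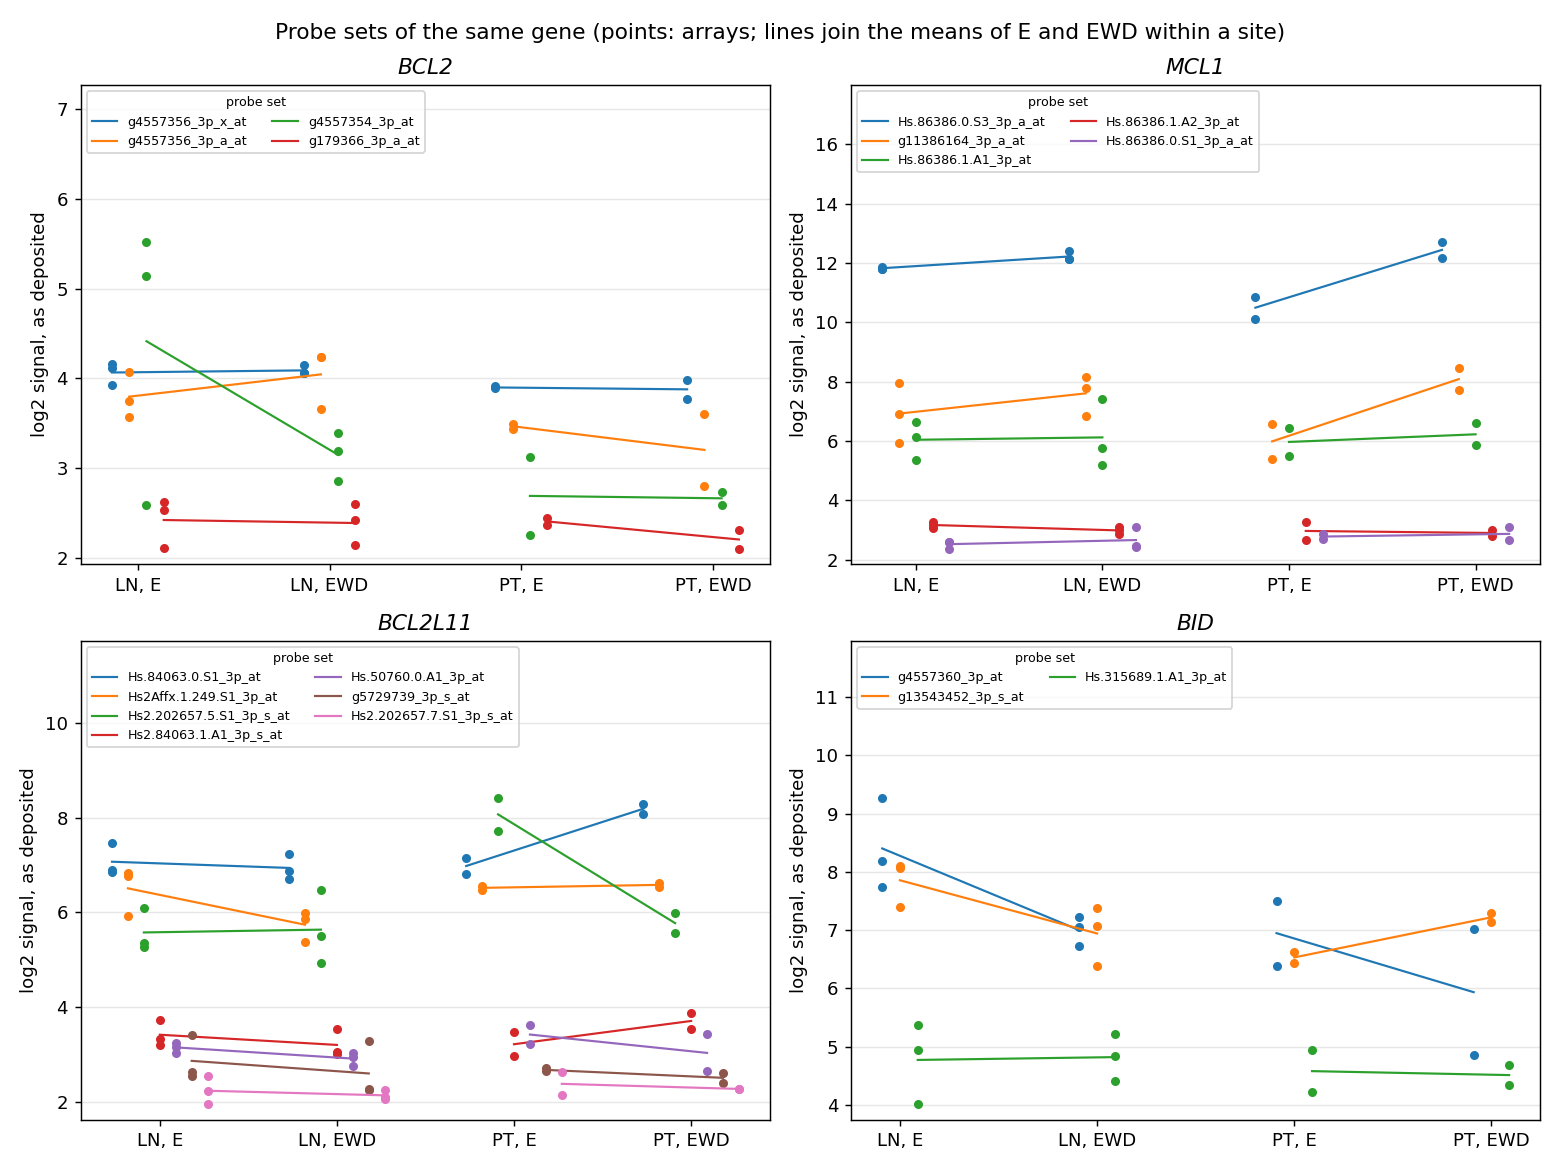
Log2 signal as deposited (vertical axis) of every probe set of BCL2, MCL1, BCL2L11 and BID in lymph nodes (LN) and primary tumors (PT) with E and after EWD. Points are arrays, colors are probe sets and lines join the E and EWD means of a site. In primary tumors the BCL2L11 lines cross: Hs2.202657.5.S1_3p_s_at (green) lies at 8.43 and 7.72 with E and the brightest probe set (blue) at 8.30 and 8.08 after EWD.

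BID, whose cleaved form links death receptors to the mitochondrion, was higher with E on all lymph node arrays of its brightest probe set (g4557360_3p_at), without passing the test. It read 8.19, 9.27 and 7.74 in E lymph nodes, against 6.72, 7.23 and 7.05 in EWD lymph nodes. The E primary tumors read 6.39 and 7.51, against 7.02 and 4.85 in EWD primary tumors, and the groups overlapped. The differences were 1.40 (SE 0.60, adjusted p = 0.840) in lymph nodes and 1.01 (SE 0.73, adjusted p = 0.428) in primary tumors, where leaving out 1 array gave −0.09 to 2.10. After quantile normalization the primary tumor groups no longer overlapped, at 1.83 (SE 0.79, adjusted p = 0.226), and the average over sites was 1.66 (SE 0.50, adjusted p = 0.0942). A second BID probe set (g13543452_3p_s_at) read 8.07, 7.40 and 8.09 in E lymph nodes, just above the 7.07, 7.38 and 6.38 of EWD lymph nodes, at 0.91 (SE 0.29, adjusted p = 0.816). In primary tumors it read 6.62 and 6.44 with E, below 7.30 and 7.14 after EWD, at −0.69, or 0.14 after quantile normalization. The dimmest BID probe set overlapped between E and EWD in both sites.

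BBC3, a p53 target that binds all survival proteins, read 7.08, 8.90 and 6.94 in E lymph nodes and 8.22, 8.33 and 7.36 in EWD lymph nodes. Mouse 11 stood above the other E lymph nodes by more than 1.5 log2 units, and the groups overlapped. In primary tumors BBC3 read 6.90 and 6.91 with E, below 8.32 and 7.58 after EWD, a difference of −1.03 (SE 0.64, adjusted p = 0.354) that was −0.06 after quantile normalization. PMAIP1, the NOXA gene, was dim: its tested probe set (g10863922_3p_a_at) stood at percentile 31.5 by mean signal and ran from 1.92 to 3.16 over the 10 arrays, with overlapping groups in both sites. Its second probe set was under the floor for testing, which left 27 of the 29 probe sets tested.

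Between lymph node metastases and primary tumors with E, MCL1 was the only one of the 10 genes called, and it was higher in lymph nodes. At the readings given above, 11.80 to 11.86 in E lymph nodes against 10.12 and 10.87 in E primary tumors, the difference was 1.33 (SE 0.28, adjusted p = 0.0241), where 8.76% of all genes were called, 7.81% higher and 0.949% lower. After quantile normalization the difference was −0.46 (SE 0.23, adjusted p = 0.472), with E lymph nodes below E primary tumors on every array, so the direction turned with the scale. With mouse as a fixed replicate block, which pairs the sites within a mouse, the adjusted p was 0.221, and with only the arrays compared it was 0.116, so that neither fit called MCL1. The call also ended without the lymph node array of mouse 6 (1.31, adjusted p = 0.0898), the primary tumor array of mouse 11 (0.95, adjusted p = 0.141) or the EWD lymph node array of mouse 10 (1.33, adjusted p = 0.0557). The groups did not overlap for 5 of the 10 members, all higher in lymph nodes, against 28% of all genes higher and 9.98% lower. These were BCL2, MCL1, BAX, BBC3 and BID. After quantile normalization 2 members did not overlap, MCL1 and BCL2L11, both lower in lymph nodes, against 13.6% of all genes higher and 14.3% lower, and 0.46% of all genes were called.

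Among single probe sets, 2 were called between the sites with E. The MCL1 probe set just described was 1 of them, and the other was the BCL2L11 probe set that stood apart in E primary tumors (Hs2.202657.5.S1_3p_s_at), lower in lymph nodes by −2.50 on the log2 scale (SE 0.48, adjusted p = 0.0231), where 4.11% of all probe sets were called higher and 0.665% lower. After quantile normalization it was −3.69 (adjusted p = 0.0639). This call ended without the E arrays of lymph node mouse 6 or of either primary tumor, or without the EWD arrays of mouse 10 in lymph node and of either primary tumor, where adjusted p-values lay between 0.0502 and 0.138. The second BID probe set was higher in E lymph nodes than in E primary tumors at 1.33 (SE 0.33), just short of the threshold (adjusted p = 0.0612).

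After withdrawal no member was called between the sites, and 0% of all genes were. At an unadjusted p under 0.05 in this limma fit stood 1 of the 10 members, against 10% of all genes, and that member was BCL2L11. Its brightest probe set read 7.24, 6.70 and 6.89 in EWD lymph nodes, all below 8.30 and 8.08 in EWD primary tumors. The difference was −1.24 (SE 0.28, adjusted p = 0.209), and after quantile normalization it was −1.27 (SE 0.26, adjusted p = 0.271). The hybridization control means were 9.47, 10.13 and 12.31 on EWD lymph node arrays, against 12.47 and 12.33 on EWD primary tumor arrays. The GAPDH 3′ minus 5′ signal was 4.39, 3.84 and 4.10, against 4.62 and 5.87. The part of either in the site differences was not tested. The groups did not overlap for 3 members higher in lymph nodes (BCL2, BCL2L1 and BAK1) and 1 lower (BCL2L11), against 20.8% and 10.2% of all genes. BAK1 read 6.29, 5.90 and 5.84 in EWD lymph nodes and 5.39 and 4.50 in EWD primary tumors, at 1.07 (SE 0.48, adjusted p = 0.509).

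**Figure D4:**
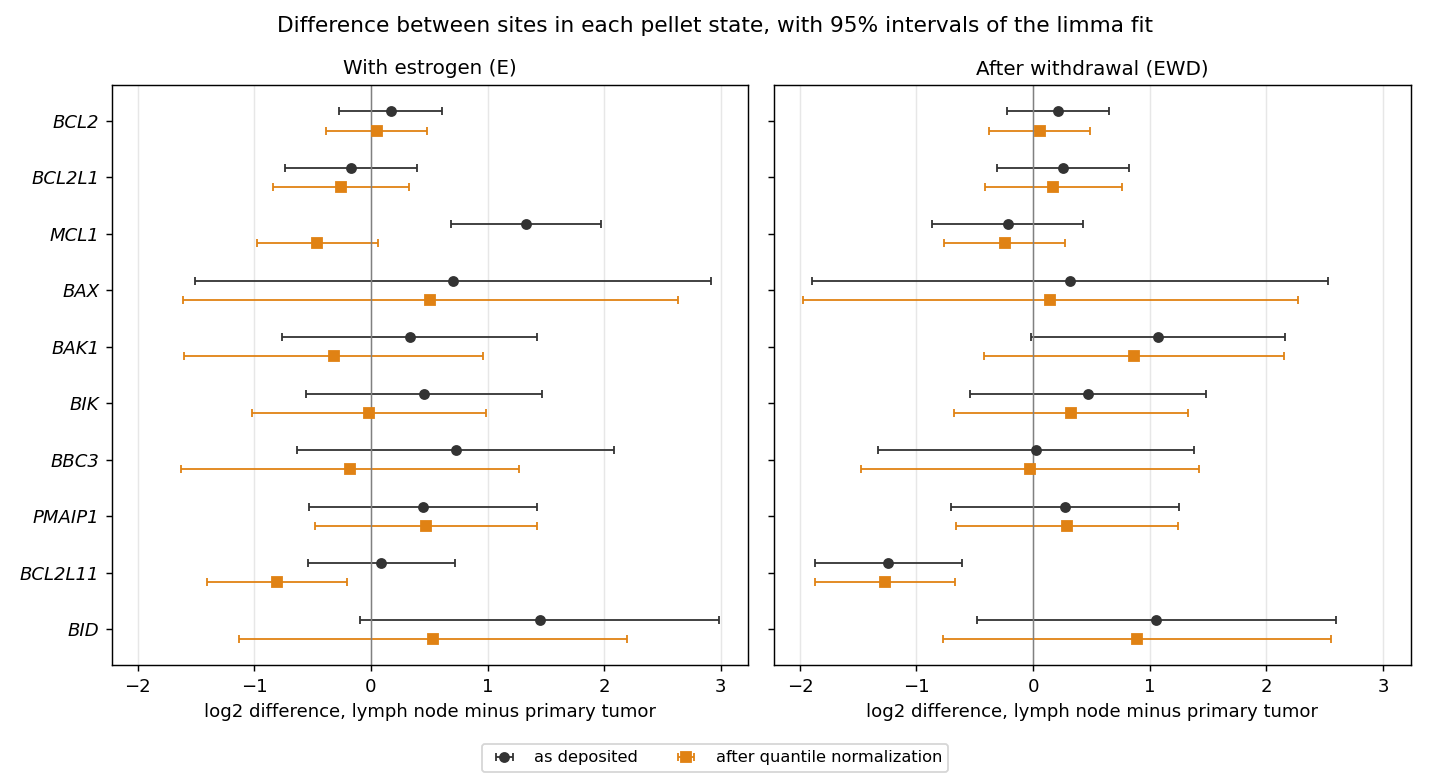
Log2 difference of lymph node minus primary tumor (horizontal axis) with E and after EWD for the 10 genes, with 95% intervals of the limma fit. Black circles are the values as deposited and orange squares those after quantile normalization. With E, MCL1 lies at 1.33 as deposited and −0.46 after normalization, and after EWD BCL2L11 lies at −1.24 and −1.27.

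Averaged over E and EWD, no member was called between the sites, against 8.15% of all genes (0.344% after quantile normalization), and 3 members had an unadjusted p under 0.05 in the limma fit, against 23.4% of all genes. BCL2L11 came nearest to the threshold after quantile normalization, at −1.04 (SE 0.19, adjusted p = 0.0644), and −0.58 (SE 0.20, adjusted p = 0.111) as deposited. A BCL2L1 probe set that does not represent the gene in the fit over genes separated the sites in both pellet states, and it was picked among the 4 for that. It read 3.58, 3.50 and 3.06 in E lymph nodes and 2.67 and 2.74 in E primary tumors, and 4.10, 4.12 and 2.81 in EWD lymph nodes and 2.39 and 2.45 in EWD primary tumors. Every lymph node array stood above both primary tumor arrays of its pellet state. Of all probe sets, 23.2% did so with E and 19.6% after EWD. Over all 10 arrays, every lymph node array was above every primary tumor array for 4.64% of all probe sets. Of the 27 member probe sets tested, 1 did so, the picked one. The other 3 BCL2L1 probe sets overlapped between the sites with E, and the brightest had a difference of −0.17 there. For the picked probe set the averaged difference was 0.98 (SE 0.28, adjusted p = 0.0862), or 0.95 (adjusted p = 0.174) after quantile normalization.

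The response to the pellet was also compared between the sites directly, as the lymph node difference minus the primary tumor difference. None of the 10 genes was called, and 0.0116% of all genes were (0.00582% after quantile normalization), while 2 members (MCL1 and BCL2L11) had an unadjusted p under 0.05 in the limma fit, against 10.8% of all genes. MCL1 stood at 1.55 (SE 0.40, adjusted p = 0.190) and at −0.22 after quantile normalization. BCL2L11 stood at 1.33 (SE 0.39, adjusted p = 0.240) and at 0.46 after normalization. The calls made in primary tumors and not in lymph nodes are therefore not shown to differ between the sites.

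The other genes of the pathway were taken from lists, with all members counted. The lists were chosen with earlier results of these data known, so their counts and medians are descriptions and not tests of the lists. Of the other BCL2 family genes 12 of 13 were tested, and in primary tumors 1 was higher with E and 1 lower, against 0.879% and 6.94% of all genes. BCL2A1, a survival gene known as an NF-kappaB target, read 8.36 and 5.30 in E and 3.40 and 2.64 in EWD primary tumors, and no more than 3.60 on any lymph node array. Its difference with E was 3.81 (SE 0.85, adjusted p = 0.0337) in primary tumors and −0.18 (SE 0.70, adjusted p = 0.985) in lymph nodes, and after quantile normalization the primary tumor value was 4.65 (adjusted p = 0.0637). The mean of the leukocyte markers, cells in which BCL2A1 is also known to be active, was 2.64 to 2.77 on E and 2.47 to 2.49 on EWD primary tumor arrays. Host leukocytes are mouse cells, which reach human probe sets only by cross-hybridization, so these means do not measure them. A part of such cells in the BCL2A1 values was not tested. BCL2L2, which encodes the survival protein BCL-w, read 7.35 and 7.18 in E and 8.17 and 9.46 in EWD primary tumors, at −1.55 (SE 0.40, adjusted p = 0.0499), or −0.46 after normalization. BAD, a BH3-only gene whose protein is silenced by phosphorylation, was called higher in lymph nodes averaged over pellet states, at 1.80 (SE 0.35, adjusted p = 0.0211). Of all genes 7.51% were called higher in that comparison, and BAD was not called after quantile normalization. It read 6.62, 7.82 and 5.94 in E lymph nodes and 4.98 and 5.18 in E primary tumors, and 6.75, 6.74 and 6.08 in EWD lymph nodes and 4.44 and 4.83 in EWD primary tumors. The median difference with E of this list in primary tumors was −0.03, against −0.10 for all genes.

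At and downstream of the pore, 12 genes were tested, those of the apoptosome, of proteins released from mitochondria, of caspase inhibitors and of the VDAC channels of the outer membrane. In primary tumors 2 of the 12 were lower with E and none was higher, against 6.94% and 0.879% of all genes. Among all genes the median difference in that comparison was −1.15 for genes with a mean of 7 to 10 and −1.90 for genes over 10, the levels of the 2 called genes. These were CYCS, which encodes cytochrome c, at −1.81 (SE 0.42, adjusted p = 0.0376), and DIABLO, which relieves the block on caspases, at −2.15 (SE 0.48, adjusted p = 0.0340). After quantile normalization they were −0.07 and −0.80, and neither was called. In the death receptor arm upstream of BID, 7 genes were tested and 1 was called in primary tumors (7.82% of all genes were), FADD, the adaptor of the receptors, at −1.50 (SE 0.33, adjusted p = 0.0324), or 0.07 after normalization. No gene of either list was called between E and EWD in lymph nodes, where 0% of all genes were.

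The list of transcription factors known to act on BCL2 family genes was made with earlier results known, so its count is not a test. Of the 10 tested, 5 were lower with E in primary tumors and none was higher, against 6.94% and 0.879% of all genes. The list's median difference was −1.81, or −0.47 after normalization, against −0.10 and 0.06 for all genes, and ATF4 and FOXO3 are among the bright genes whose medians were given above. The 5 lower ones were JUN (−2.20), DDIT3 (−2.13), FOXO3 (−2.04), ATF4 (−1.98) and ATF3 (−1.64). FOXO3 is a known activator of BCL2L11, and ATF4, DDIT3 and ATF3 belong to the stress response that acts on BBC3 and PMAIP1. ATF3 was the only one still called after quantile normalization, at −1.64 (SE 0.32, adjusted p = 0.0479). It read 3.37 and 3.39 in E primary tumors, against 5.02 and 5.05 in EWD primary tumors. Averaged over sites 6 of the 10 were lower with E, against 7.04% of all genes lower and 0.978% higher. ESR1, the estrogen receptor gene, joined the 5 at −3.50 (SE 0.82, adjusted p = 0.0404). Its E lymph node arrays were spread widely, at 9.22, 5.44 and 10.24 in mice 6, 11 and 14. After normalization MYC was higher with E in that average, at 1.76 (SE 0.35, adjusted p = 0.0386), and ATF3 lower, at −1.06 (SE 0.20, adjusted p = 0.0307). Of all genes 1.62% were then called higher and 2.1% lower.

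The list of genes that act on the turnover of MCL1 and of BH3-only proteins was likewise made with earlier results known. Of the 9 tested, 4 were lower with E in primary tumors and none was higher, against 6.94% and 0.879% of all genes. The list's median was −1.68, or −0.40 after normalization, against −0.10 and 0.06 for all genes, and YWHAZ, DYNLL1 and HUWE1 have means over 10, a level at which the median of all genes was −1.90. The 4 lower ones were YWHAZ (−2.45), DYNLL1 (−2.21), USP9X (−1.93) and HUWE1 (−1.68). USP9X removes ubiquitin from MCL1 protein and HUWE1 adds it, while DYNLL1 holds BIM at the cytoskeleton and YWHAZ, a 14-3-3 protein, binds phosphorylated BAD. Averaged over sites YWHAZ (−1.51), DYNLL1 (−1.28) and HUWE1 (−0.96) were lower with E, as was DIABLO (−1.36) of the list downstream of the pore. Of all genes 7.04% were called lower in that average. After normalization the primary tumor values were −0.60, −0.40, −0.83 and −0.18 for YWHAZ, DYNLL1, USP9X and HUWE1, and none of the 4 was called. In lymph nodes no gene of these 5 lists was called between E and EWD, a comparison in which 0% of all genes were called.

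Between the sites with E, 6 genes of these lists, of which 12, 12, 7, 10 and 9 were tested, were higher in lymph nodes and 1 was lower, against 7.81% and 0.949% of all genes. The higher ones were CYCS at 2.15 (SE 0.39), DYNLL1 at 2.05 (SE 0.45), YWHAZ at 1.96 (SE 0.36), ATF4 at 1.69 (SE 0.31), USP9X at 1.69 (SE 0.42) and FADD at 1.40 (SE 0.31). BCL2A1 was lower, at −4.12 (SE 0.79, adjusted p = 0.0166). After quantile normalization none was called: the 6 lay between −0.12 (FADD) and 0.67 (USP9X), and BCL2A1 lay at −5.00 (adjusted p = 0.0783). Averaged over pellet states, BAD was joined on the higher side by E2F1, a cell cycle factor (1.28, SE 0.24), CYCS (1.16, SE 0.28), TNFRSF1A, a death receptor (1.09, SE 0.27) and YWHAZ (1.02, SE 0.25), and ATF3 was lower (−1.03, SE 0.22). Of all genes 7.51% were called higher and 0.641% lower in that comparison. After quantile normalization none of these 6 was called, at 1.44 for BAD (adjusted p = 0.156), 0.81 for E2F1, 0.29 for CYCS, 0.63 for TNFRSF1A, 0.13 for YWHAZ and −1.09 for ATF3 (adjusted p = 0.0780). No gene of the 5 lists was called between the sites after EWD, where 0% of all genes were.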

How the data were processed

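Each array gave 1 log2 value per probe set, as deposited by the authors. Partek and RMA (background correction, normalization and summary of probes) made these values, per the submitters' processing notes, which give no version. The arrays as deposited did not share 1 distribution all the same, with 99th percentiles from 9.44 to 11.67. Per the labels' protocols, RNA was PCR amplified after laser capture, which adds noise and can favor 3′ ends. Arrays give no counts, and their number limits the precision. The organism field names the mouse, while the probe sets are human, so host RNA reaches them only by cross-hybridization.

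Genes were taken from 44532 probe sets with exactly 1 symbol (1492 had several), each gene by its brightest probe set (highest mean of all arrays). Genes with a mean under the 25th percentile of probe set means (2.31) were left out, 2386 of them. The test was that of limma 3.58.1 (run in R 4.3.3; moderated by eBayes), with a mean for each group and mouse as a random block (consensus correlation −0.04). There were 7 comparisons. Quantile normalization, the mean over probe sets, other floors, other treatments of mouse, a hybridization covariate and leaving out each array were tried as alternatives. The fit was run on simulated data with independent noise on each array. These had no compressed range, hybridization split or effect of mouse, so that run does not cover those limits of the data. The 10 members and the gene lists were chosen with earlier results of these data known. Named genes are all members and, from each list, those called in a comparison. Mouse numbers were read from the sample titles. The correlation of deviations from the group means between the arrays of 1 mouse was 0.176, −0.208, −0.210 and 0.0831 in mice 10, 11, 14 and 19. In a group of 2 arrays these deviations are opposite by construction, so the values do not test the pairing.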

Additional observations from a re-analysis of the deposited data

Results flagged for a closer look

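The BID probe set g13543452_3p_s_at is listed because its arrays moved in opposite directions in the 2 sites. In lymph nodes all E arrays (8.07, 7.40 and 8.09) were above all EWD arrays (7.07, 7.38 and 6.38), and in primary tumors both E arrays (6.62 and 6.44) were below both EWD arrays (7.30 and 7.14). The difference of the responses was 1.60 (SE 0.47, adjusted p = 0.322 by limma) and did not pass the test. After quantile normalization it was 0.87, and with the hybridization controls as a covariate it was 2.27 (adjusted p = 0.00474). In primary tumors that covariate cannot be told apart from pellet state, so this value does not settle whether the responses differ. Of 48 member values newly called under alternatives, 27 came with this covariate. The margin between the lymph node groups was 0.02 log2 units wide at its nearest pair, and the brightest BID probe set did not share the pattern.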

How the results depend on the processing

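The counts of members called were 2 (E against EWD in primary tumors), 1 (lymph node against primary tumor with E) and 1 (E against EWD averaged over sites) among the 10 genes, 2, 2 and 1 among the 27 probe sets, and 0 in the other comparisons. After quantile normalization all were 0. For the alternatives that follow, the shares of all genes and probe sets called are not given. Those counts therefore do not set the members apart from other genes. With the mean over probe sets the primary tumor count was 1 (MCL1), and BID alone was called between the sites with E and in the average (1 gene each). With no floor 1 probe set was called in primary tumors. With only the arrays compared the counts were 4 probe sets in primary tumors, and 0 genes and 0 probe sets between the sites with E. With the hybridization controls as covariate the gene counts were 2 for the difference of responses, 1 between sites after EWD, 3 for averaged E and 2 for the averaged sites. The probe set counts with it were 7 in primary tumors, 4 for the difference of responses and 5 between the sites with E. They were 2 between sites after EWD, 5 for averaged E and 3 for the averaged sites. Hybridization and pellet state cannot be told apart in primary tumors, which limits these counts. With mouse as a fixed replicate block, which uses the pairing of sites in 4 mice, 0 genes and 0 probe sets were called between the sites with E, and without the block no count changed. Leaving out 1 array gave 0 to 2 genes and 0 to 4 probe sets in primary tumors, 0 to 1 genes and 0 to 4 probe sets between the sites with E, 0 to 3 genes and 0 to 2 probe sets for averaged E, 0 to 1 probe sets for the difference of responses and 0 to 2 for the averaged sites. The BCL2 probe set g4557354_3p_at was called between the sites with E only without the E lymph node array of mouse 11 (2.64, adjusted p = 0.00425) and with the covariate (2.11). Called differences that changed sign were MCL1 between the sites with E after quantile normalization (−0.46 for the gene and for its brightest probe set), BCL2L11 in primary tumors with the mean over probe sets (0.17), and, called only with the covariate, the MCL1 probe set next but one in brightness in primary tumors (1.31). The cause was not tested. Of 4209 single values under alternatives, 3874 kept their call with the same direction, or were uncalled and moved by less than their SE. In primary tumors the groups of 2 arrays and the compressed range of the E arrays limit every statement.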
